A study of Mus musculus with 9 samples.

Results

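Small leucine-rich proteoglycans are secreted matrix proteins with a core of leucine-rich repeats, and 9 genes of this family, Aspn, Dcn, Bgn, Lum, Fmod, Ogn, Omd, Prelp and Kera, were read by symbol from the 24421 rows of a mouse glioma count table. The set was put together around Aspn, which was selected on its counts in BAL101553 against control libraries, where they are much higher after BAL101553, and the 8 others were added as relatives of Aspn with earlier results of these data known. Values of Aspn are therefore a description and carry no test. The table holds 3 groups of 3 libraries, all from the brain of C57BL/6 mice. Control and BAL101553 libraries are SB28 cells, a mouse glioma line that carries GFP and luciferase, implanted in the brain of mice that were 6 to 8 weeks old and sorted as CD45-CD11b-GFP+ cells, although the labels call the material whole tissue. Sort, age and days of harvest are those of the published account, and their link to these libraries is not certain. Control mice received vehicle and were killed at day 21. BAL101553, a prodrug of a microtubule-binding compound that was given by oral gavage, was received by the mice of the second group, which were killed at day 35 by one account and at day 33 by another, so drug and days of growth cannot be told apart. Libraries of the third group carry astrocytes as the cell type and BAL101553 as the treatment; how those cells were obtained is not given in the sources used here, and they are called astrocyte-labelled below. Both tumor groups come from 1 cell line, and nothing in the labels says that libraries of a group are separate animals, so p-values measure the spread between these libraries, which may be technical.

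Small leucine-rich proteoglycans bind collagen fibrils and set their width and spacing, and several of them also hold growth factors of the TGF-β family or signal through Toll-like and growth factor receptors. Decorin (Dcn), biglycan (Bgn) and asporin (Aspn) form one class, of which decorin and biglycan carry chondroitin or dermatan sulfate chains whereas asporin has a run of aspartic acid and lacks such chains. Fibromodulin (Fmod), lumican (Lum), keratocan (Kera), PRELP (Prelp) and osteoadherin (Omd) form the keratan sulfate class, and mimecan (Ogn) belongs to a further class with epiphycan and opticin. In healthy brain several of these genes are known from fibroblasts of the meninges and of vessel walls, and gliomas are known to make some of them.

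The 9 genes lie at 4 places in the mouse genome (GENCODE vM21 on GRCm38). Aspn (chr13:49544443-49567565), Omd (chr13:49582462-49592822) and Ogn (chr13:49608046-49624501) follow each other within 80.1 kb on the forward strand of chromosome 13, with Ecm2, a related leucine-rich matrix gene, 11654 bases before Aspn. All of them sit inside the span of Cenpp, a centromere protein gene on the reverse strand, and Aspn shares exon bases with it. Dcn, Lum and Kera lie within 134.1 kb on chromosome 10, Prelp and Fmod within 138.0 kb on chromosome 1, and Bgn alone on chromosome X. Prelp shares exon bases with Gm15851, a transcript on the other strand. Whether counting used the strand is not stated, so reads of these overlapping pairs may have been assigned to either gene or to neither.

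Since Aspn, Omd and Ogn are neighbours that were all higher after BAL101553 while Ecm2 stayed at 12 counts or fewer in the tumor cells, the annotated promoters of these 4 genes are shown, from 250 bases before to 50 bases after the start (RefSeq, GRCm38.p6, forward strand, 5′ to 3′). Capitals mark TATAAA, the core of a TATA box, on either strand (TTTATA when it lies on the reverse strand).
Ecm2 (chr13:49504560-49504859): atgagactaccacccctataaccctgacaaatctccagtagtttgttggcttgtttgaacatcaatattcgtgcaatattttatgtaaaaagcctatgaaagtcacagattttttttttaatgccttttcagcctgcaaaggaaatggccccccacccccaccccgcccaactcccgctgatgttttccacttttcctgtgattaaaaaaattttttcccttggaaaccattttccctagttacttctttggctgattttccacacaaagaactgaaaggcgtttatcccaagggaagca
Aspn (chr13:49544193-49544492): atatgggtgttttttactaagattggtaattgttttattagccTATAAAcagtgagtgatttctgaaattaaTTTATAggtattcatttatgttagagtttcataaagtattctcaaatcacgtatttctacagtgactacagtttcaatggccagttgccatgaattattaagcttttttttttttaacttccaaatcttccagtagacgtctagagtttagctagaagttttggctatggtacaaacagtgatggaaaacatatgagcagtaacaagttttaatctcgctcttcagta
Omd (chr13:49582212-49582511): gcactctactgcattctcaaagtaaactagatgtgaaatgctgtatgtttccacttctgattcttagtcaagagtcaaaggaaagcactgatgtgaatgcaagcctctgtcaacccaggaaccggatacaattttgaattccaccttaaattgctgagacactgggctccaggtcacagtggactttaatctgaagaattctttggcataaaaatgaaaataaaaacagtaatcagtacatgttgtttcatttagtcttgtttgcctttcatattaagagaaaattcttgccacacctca
Ogn (chr13:49607765-49608064): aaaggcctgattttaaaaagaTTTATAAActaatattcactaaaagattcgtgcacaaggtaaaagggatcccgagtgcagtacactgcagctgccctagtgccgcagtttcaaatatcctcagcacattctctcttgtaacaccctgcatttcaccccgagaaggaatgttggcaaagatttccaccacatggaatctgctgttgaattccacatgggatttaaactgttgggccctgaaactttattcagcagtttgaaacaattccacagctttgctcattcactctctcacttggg
Aspn holds TATAAA at position -207 on the forward strand and at -178 on the reverse strand, and Ogn holds the overlapping pair at -229 and -227, counted from the annotated start. Whether these matches act as TATA boxes was not tested. None was found in the windows of Omd and Ecm2, and 13.6% of 32851 mouse promoters of the same length hold the motif. Neither TGANTCA, the AP-1 motif, nor the CArG box of serum response factor was found in the windows of the 7 members that matched (Aspn, Bgn, Fmod, Ogn, Omd, Prelp, Kera) or of Ecm2, against 7.81% and 1.63% of all promoters. CANNTG, the E-box, is held by 72.3% of promoters and was found in Aspn, Bgn, Fmod, Ogn and Prelp. The 3 promoters of the chromosome 13 members are low in G and C, at 31.0% for Aspn, 37.7% for Omd and 42.3% for Ogn, where the median of all promoters is 52.7%. Ecm2 and Kera, at 41.0% each, lie in the same range, and Fmod (51.0%), Prelp (55.3%) and Bgn (63.7%) lie above it.

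Total counts were between 22919523 and 34013875 per library, so that 3 counts, taken as the limit of detection, stand for 0.0884 to 0.135 CPM, which are counts scaled to a common library size. CPM were scaled over all 9 libraries by TMM, which corrects for differences in composition, and intervals and limits cover counting error only. The genes of the proteins that the sort selected against were low in the tumor libraries. Ptprc and Itgam, the genes of CD45 and CD11b, summed to 0.206 to 0.513 CPM in the 6 tumor libraries and to 34.3 to 96.4 CPM in the astrocyte-labelled libraries. All 7 astrocyte markers were detected in the astrocyte-labelled libraries, summing to 11785 to 14508 CPM, but so were oligodendrocyte markers, at 10282 to 12723 CPM, and microglial and macrophage markers, at 529 to 1064 CPM. The astrocyte-labelled libraries are thus a mixture by their markers, and their levels are not those of astrocytes alone.

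In untreated SB28 cells 1 member, Bgn, outweighed the others. Bgn had 1194, 1398 and 978 CPM in the 3 control libraries, and per kb of annotated exon its mean of 195 CPM per kb was higher than that of 99.0% of 23309 genes. No other member reached 1 CPM per kb in any control library. Dcn followed with 0.850 ± 0.172 CPM per kb (SD, n = 3), and its control libraries did not overlap those of the 7 members below it. Ogn (0.332 ± 0.215), Omd (0.300 ± 0.121), Aspn (0.199 ± 0.232) and Lum (0.114 ± 0.0483 CPM per kb) did not differ from their neighbours in this order beyond their spread. Prelp was at 3, 5 and 10 counts, and Fmod at 2, 0 and 0 counts.

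**Figure D1:**
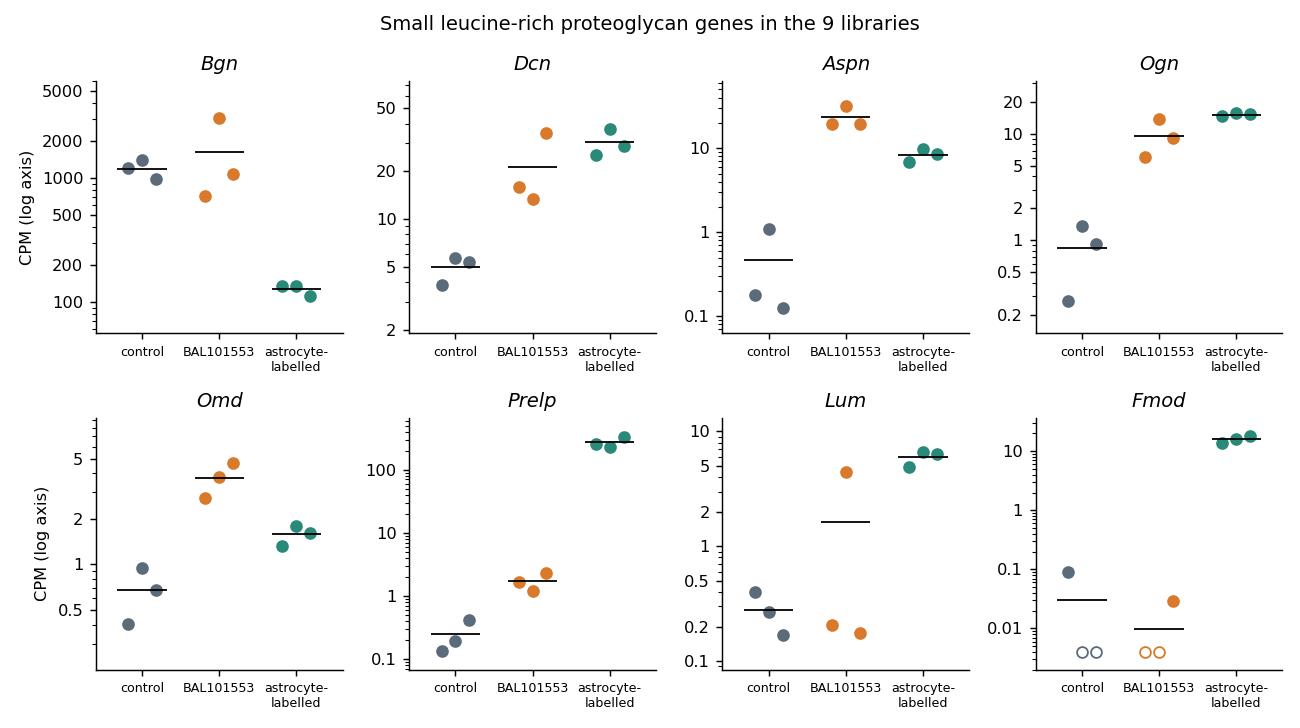
CPM of 8 members (log axes, a different range in each panel) in the control, BAL101553 and astrocyte-labelled libraries, with a point for each library, a line at the group mean and open points, set at the foot of the axis, for libraries with 0 counts. Aspn, Ogn, Omd, Dcn and Prelp are higher in all 3 BAL101553 libraries than in any control, Bgn and Lum overlap with 1 high BAL101553 library, and Prelp and Fmod are highest in the astrocyte-labelled libraries.

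Aspn and 4 of its relatives were higher in BAL101553-treated than in control tumor cells. Aspn had 4, 29 and 3 counts in the control libraries and 572, 799 and 659 in the BAL101553 libraries, or 0.179, 1.10 and 0.126 CPM against 19.6, 31.5 and 19.4 CPM. The groups did not overlap, and the lowest treated library was 17.7-fold above the highest control. Asporin binds collagen and TGF-β. The fitted log2 fold change of Aspn was 5.58 (SE 0.59), a 48.0-fold difference, and its size depended on control replicate 2, the control with 29 counts, without which it was 7.22. Leaving out each of the other 5 libraries in turn gave 5.14 at the lowest.

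Ogn and Omd, the neighbours of Aspn on chromosome 13, rose as well. Ogn, the gene of mimecan, a regulator of fibril width, had 0.269, 1.36 and 0.926 CPM in controls and 6.05, 13.8 and 9.16 CPM after BAL101553. The lowest treated library was 4.44-fold above the highest control, and the log2 fold change was 3.48 (SE 0.52, edgeR quasi-likelihood test with Benjamini-Hochberg adjustment, adjusted p = 0.0104). Ogn passed the filter on low counts only through the BAL101553 libraries, where it is high, so its p-value is a description and no support. Omd, whose product osteoadherin is best known from bone, had 0.404, 0.947 and 0.673 CPM in controls. After BAL101553 it had 2.74, 3.79 and 4.65 CPM, again with no overlap, and rose by 2.45 on the log2 scale (SE 0.37, edgeR adjusted p = 0.0105). Both calls were lost when control replicate 3 was left out, with edgeR adjusted p of 0.0540 for Ogn and 0.0560 for Omd. No other gene of this region that could be tested was called. Cenpp had 4.08, 2.77 and 4.04 CPM in controls and 3.39, 6.63 and 3.71 CPM after BAL101553, and Ecm2 remained between 0.0758 and 0.353 CPM in the 6 tumor libraries. Of the 9 genes beside the 9 members on their chromosomes, 7 could be tested, and edgeR called 0 of them, as did DESeq2 and the exact test; 0 had an unadjusted p under 0.05.

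**Figure D2:**
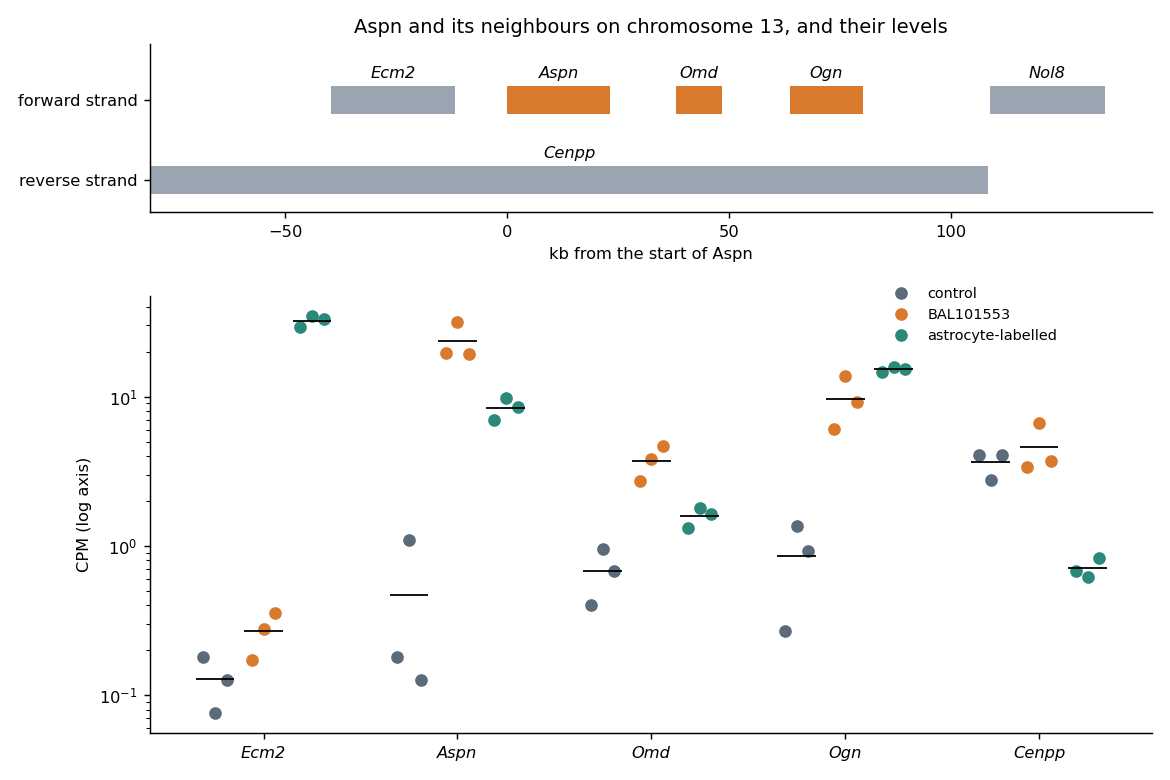
Upper panel, Aspn, Omd and Ogn (orange) with Ecm2, Cenpp and Nol8 (gray) on the 2 strands of chromosome 13, in kb from the start of Aspn. Lower panel, CPM (log axis) of 5 of these genes with a point for each library and a line at the group mean: Aspn, Omd and Ogn are apart between control and BAL101553 libraries, Cenpp overlaps, and Ecm2 is at 29.1 to 34.8 CPM in the astrocyte-labelled libraries and at 0.353 CPM or less in the tumor libraries.

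Dcn and Prelp, from 2 other places in the genome, also rose. Dcn, the gene of decorin, the best known collagen-binding member and an inhibitor of TGF-β, had 3.81, 5.68 and 5.39 CPM in controls and 15.9, 13.4 and 34.7 CPM after BAL101553. Its groups did not overlap, BAL101553 replicate 3 was the highest, and the log2 fold change was 2.11 (SE 0.37, edgeR adjusted p = 0.0148). Prelp, which links basement membranes to collagen, had 0.135, 0.189 and 0.421 CPM in controls and 1.64, 1.18 and 2.33 CPM after BAL101553. Groups of Prelp did not overlap and its log2 fold change was 2.78 (SE 0.48, edgeR adjusted p = 0.0141), from 48, 30 and 79 treated counts against 3, 5 and 10. Prelp, like Ogn, passed the filter on low counts only through the BAL101553 libraries, so its p-value too is a description and no support. The call of Dcn was lost without control replicate 1 (edgeR adjusted p = 0.0564) and without control replicate 3 (0.0650), and that of Prelp without control replicate 1 (0.0535).

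Bgn did not pass the test. Its BAL101553 libraries had 720, 3021 and 1074 CPM, on both sides of the controls, and the log2 fold change was 0.44 (SE 0.47, edgeR adjusted p = 0.543). The sign rested on BAL101553 replicate 2, without which the log2 fold change was -0.41. Lum, the gene of lumican, a keratan sulfate proteoglycan of collagen fibrils, had 9, 7 and 4 counts in controls and 6, 113 and 6 after BAL101553. The 1 high library was again BAL101553 replicate 2, and Lum did not pass the filter on low counts. With that filter loosened to 1 count in any library its log2 fold change was 2.50 (edgeR adjusted p = 0.182). Fmod, whose product fibromodulin binds collagen and collagen cross-linking enzymes, was at 0, 0 and 1 counts in treated libraries and at 2, 0 and 0 in controls, so no fold is given. Kera, which is known from the cornea, had 0 counts in all 9 libraries, which allows a level of up to 0.0884 to 0.135 CPM.

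Counted over the family, 6 of the 9 members passed the filter on low counts. Aspn, Ogn and Prelp passed only through the BAL101553 libraries, where they are high, and with at least 10 counts required in every library only Dcn and Bgn remained. Of the 8 members other than Aspn, 5 were tested and 4 of those were called, all higher, whereas 14.7% of 12633 genes tested were called in either direction 8.64% higher and 6.09% lower. With Aspn, 5 of 9 members did not overlap between the groups, all higher after BAL101553, where 20.1% of genes tested were higher without overlap and 19.6% were lower. Nothing is read from these counts, because the set was chosen around this difference. Calls over all genes were 1091 higher and 769 lower, or 1456 and 425 with library totals as the only scaling, and the median log2 fold change of all genes tested was 0.02. BAL101553 replicate 2 was the highest treated library for Aspn, Bgn, Lum and Ogn, replicate 3 for Dcn, Fmod, Omd and Prelp, and replicate 1 for none of the 8 detected members. Among controls, replicate 2 was the highest for Aspn, Dcn, Bgn, Ogn and Omd.

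Markers of stromal cells, in which these genes are known, were read in the same libraries. Summed over the 7 listed markers of meningeal and perivascular fibroblasts, the level was 21.6 to 22.7 CPM in controls and 23.3 to 32.1 CPM after BAL101553, of which Foxc1 alone gave 20.5 to 22.2 and 22.3 to 29.8 CPM. Dpt (0.135 to 0.379 against 0.547 to 1.82 CPM) and Pi16 (0 to 0.0897 against 0.308 to 0.434 CPM) moved with the members, while Slc6a13 was at 0 in the 3 BAL101553 libraries and Slc22a6 at 0 in all 6 tumor libraries. The 6 pericyte markers summed to 221 to 269 CPM in controls and to 352 to 375 CPM after BAL101553, nearly all from Pdgfrb. Rgs5 of the same list was lower after BAL101553 without overlap (0.276 to 1.44 against 2.35 to 7.07 CPM), and Kcnj8, Abcc9 and Higd1b had 3 counts or fewer in every tumor library. Microglial and macrophage markers (42.1 to 49.8 against 42.9 to 55.6 CPM) and oligodendrocyte markers (18.7 to 20.6 against 15.3 to 18.9 CPM) overlapped between the groups. Astrocyte markers summed to 681 to 797 CPM after BAL101553 against 940 to 971 CPM, with Gja1 and Aldh1l1 lower, Slc1a3 higher (1.30 to 2.96 against 0.583 to 0.716 CPM) and the other 4 overlapping. Endothelial markers, mostly from Cdh5, summed to 515 to 645 against 739 to 866 CPM. Neuronal markers were at 26.6 to 74.3 CPM in controls and 10.2 to 34.2 CPM after BAL101553, with Rbfox3 at 0. The part of other cells in the change of the members was not tested, and in such bulk samples more cells of a type and more RNA per cell cannot be told apart.

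**Figure D3:**
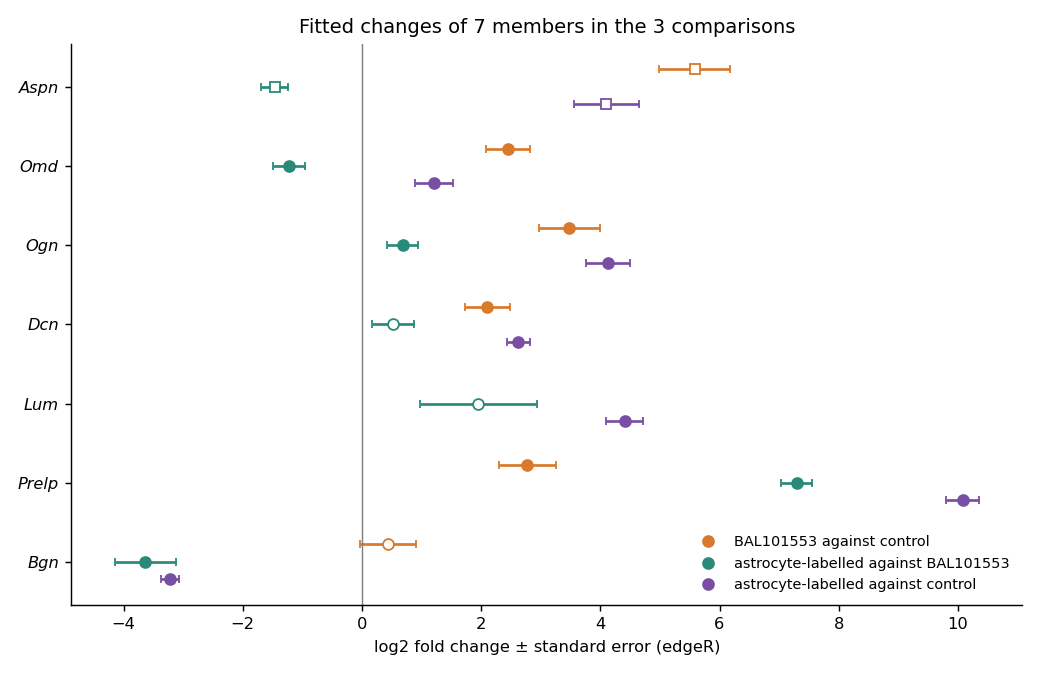
Log2 fold changes of 7 members with their standard errors in the 3 comparisons, with filled points for edgeR adjusted p under 0.05, open points for genes that did not pass, and squares for Aspn, which was not tested. In BAL101553 against control (orange) Omd, Ogn, Dcn and Prelp were called and Bgn was not, Lum was not tested there, Aspn and Omd were lower in astrocyte-labelled than in BAL101553 libraries, and Prelp had the highest of these values in both other comparisons.

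The second comparison set the astrocyte-labelled libraries against the tumor cells of the same treatment label and shares the BAL101553 libraries with the first. It separated the members, with Prelp and Fmod far higher and Bgn, Omd and Aspn lower in the astrocyte-labelled libraries. Prelp had 256, 228 and 333 CPM there, 97.9-fold or more above every BAL101553 library, with a log2 fold change of 7.29 (SE 0.27, edgeR adjusted p = 1.20e-07). Fmod had 13.7, 16.2 and 18.5 CPM, and its 1403 counts against 1 give a ratio of 1413 with a 95% counting interval of 253 to 55839; since Fmod passed the filter only through the astrocyte-labelled libraries, its test is not given. Bgn went the other way, at 133, 135 and 112 CPM, and fell by 3.64 on the log2 scale (SE 0.51, edgeR adjusted p = 0.000214). Omd, at 1.33, 1.79 and 1.62 CPM, fell by 1.22 (SE 0.27, edgeR adjusted p = 0.00291). Aspn had 6.94, 9.80 and 8.49 CPM, all below the treated tumor cells, with a log2 difference of -1.46 (SE 0.23). Its neighbour Ecm2 was opposite to it, at 29.1, 34.8 and 33.1 CPM.

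Ogn and Dcn were closer between the astrocyte-labelled and the treated tumor libraries. Lum was close to BAL101553 replicate 2 alone, with 0.205 and 0.177 CPM in BAL101553 replicates 1 and 3. Ogn had 14.7, 15.8 and 15.3 CPM, just above the highest BAL101553 library, and the log2 fold change of 0.68 (SE 0.26, edgeR adjusted p = 0.0393) was called in 1 of 6 fits that left out 1 library. Dcn, at 25.5, 37.2 and 29.0 CPM, overlapped BAL101553 replicate 3 and had a log2 fold change of 0.53 (SE 0.35, edgeR adjusted p = 0.190). Without that library it was 1.08 and was called. Lum, at 4.87, 6.59 and 6.38 CPM, was above BAL101553 replicate 2 by 1.09-fold only and did not pass, with a log2 fold change of 1.96 (SE 0.99, edgeR adjusted p = 0.0959). Without replicate 2 of the treated libraries it was 4.93 and was called. Lum, like Fmod, passed the filter on low counts in this comparison only through the astrocyte-labelled libraries, so its tests are a description and no support. In all, 5 of the 7 tested members other than Aspn were called, Fmod among them, 3 higher and 2 lower, where 85.1% of 15314 genes tested were called, 46.3% higher and 38.9% lower. Without overlap, 4 of 9 members were higher and 3 lower, where 47.6% of genes tested were higher and 40.2% lower. The median log2 fold change of all genes was 0.18 and moved to 0.39 with library totals as the only scaling.

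Against control tumor cells, which differ from the astrocyte-labelled libraries in both labels, 7 of the 7 members tested other than Aspn were called, 6 higher and 1 lower, where 88.3% of 15207 genes tested were called, 48.8% higher and 39.5% lower. Without overlap, 7 of 9 members were higher and 1 was lower, where 49.6% of genes tested were higher and 40.3% lower. Higher were Prelp by 10.08 (SE 0.28, edgeR adjusted p = 8.98e-09), Lum by 4.41 (SE 0.31, edgeR adjusted p = 1.56e-06), Ogn by 4.13 (SE 0.36, edgeR adjusted p = 6.93e-06), Dcn by 2.62 (SE 0.20, edgeR adjusted p = 2.50e-06) and Omd by 1.21 on the log2 scale (SE 0.32, edgeR adjusted p = 0.00673). Fmod had 1403 against 2 counts, a ratio of 578 with a 95% counting interval of 160 to 4776. Bgn fell by 3.22 (SE 0.15, edgeR adjusted p = 1.51e-07), and Aspn was higher by 4.10 (SE 0.55). Of the 7, Lum, Fmod, Ogn, Omd and Prelp passed the filter on low counts only through the astrocyte-labelled libraries, where they are high, so the count of calls and its split by direction are set in part by the filter. For the same reason the p-values of Lum, Ogn, Omd and Prelp against control are a description and no support. These comparisons share libraries, and a resemblance between them is not independent of that. Pericyte markers were at 1038 to 1193 CPM in the astrocyte-labelled libraries, with Vtn at 583 to 682 CPM. Of the fibroblast markers, Slc6a13 (up to 16.9 CPM), Slc22a6 (4.41 to 5.93 CPM), Slc47a1, Pi16 and Foxd1 were above every tumor library. Dpt (0 to 0.0690 CPM) and Foxc1 (8.38 to 10.3 CPM) of the same list were below every tumor library. The part of pericytes and fibroblasts in the levels of Prelp, Fmod and Lum was not tested.

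Per kb of exon, the make-up of the family differed between the groups. Bgn held 98.9% to 99.4% of the summed CPM per kb of the members in control libraries, 88.6% to 95.2% in BAL101553 libraries and 13.7% to 20.1% in astrocyte-labelled libraries. Prelp took its place in the astrocyte-labelled libraries, with 57.2% to 68.8%. Aspn held 0.0331% to 0.201% in controls and 2.57% to 6.24% after BAL101553, and in treated cells its mean of 9.98 CPM per kb was second after Bgn and above that of 80.4% of genes. Aspn was there above Ogn (3.77 ± 1.51), Dcn (3.65, from 2.29 to 5.94), Omd (1.66 ± 0.427) and Prelp (0.475 ± 0.159 CPM per kb; SD, n = 3) in every library. Ogn and Dcn did not differ beyond their spread. Without Bgn, the summed level was 1.24, 2.55 and 1.82 CPM per kb in controls, 15.1, 24.9 and 20.6 after BAL101553, and 90.6, 88.1 and 116 CPM per kb in the astrocyte-labelled libraries. In the latter, Dcn (5.24 ± 1.03 CPM per kb) overlapped both Ogn (5.95 ± 0.214) and Fmod (4.88 ± 0.717), which did not overlap each other, Aspn was sixth at 3.57 ± 0.608, and Omd was the lowest detected member. With the longest transcript of each gene as its length, Aspn held 0.0147% to 0.0895% in controls and 1.17% to 2.94% after BAL101553, and Bgn held 26.4% to 36.0% in the astrocyte-labelled libraries, since 8 transcripts of Bgn make its exons longer together (6099 bases) than in the longest of them (2666 bases).

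**Figure D4:**
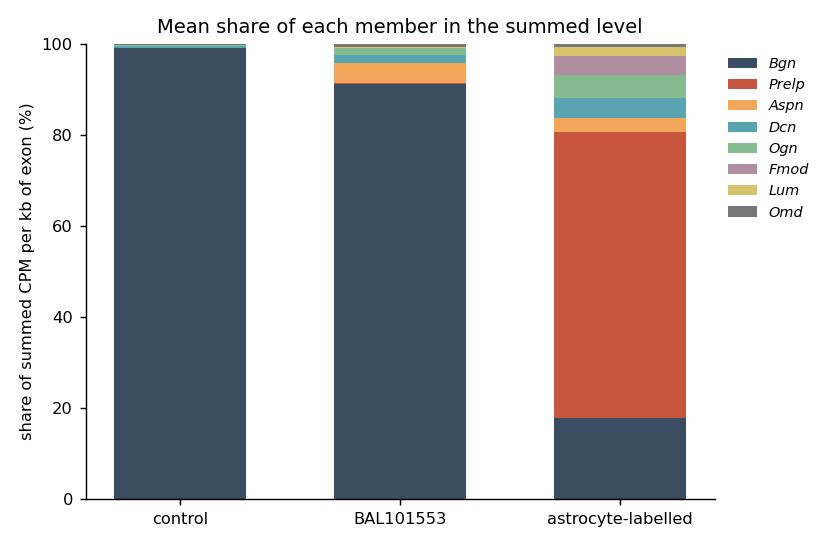
Mean share, in percent, of 8 members in the summed CPM per kb of exon of the family in each group (n = 3 libraries each, stacked bars from 0 to 100%). Bgn holds nearly all of the sum in control libraries, Aspn is the next largest after BAL101553, and Prelp is the largest in the astrocyte-labelled libraries.

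Genes whose pattern over the 9 libraries was nearest to that of Aspn were found by the root-mean-square difference of centred log2 CPM among 15400 genes outside the family. They were Mfap4 (0.859), a microfibril-associated protein, Adam33 (0.997), a membrane metalloproteinase, Aox3 (1.14), an aldehyde oxidase, Eln (1.15), the gene of elastin, and C1qtnf3 (1.27), a secreted C1q-like protein. Among the members Ogn was nearest at 1.21, followed by Omd at 1.69 and Dcn at 1.77, while Prelp was at 3.71 and Fmod at 3.88. Libraries of 1 group share their treatment and cells, so these values describe 9 libraries of 3 kinds and carry no test.

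Genes related to the family were read from lists, which with the chromosome neighbours hold 80 genes, of which 67 were tested and 21 called in BAL101553 against control. The share of all genes tested that were called is 14.7%, 8.64% higher and 6.09% lower, and nothing is called particular to a list. The lists were put together with earlier results of these data known. Fibrillar collagens, the fibrils that the proteoglycans bind, had 7 of 10 tested genes called higher and 0 lower, with a median log2 fold change of 0.79. Col11a2 had 0.0449, 0.114 and 0 CPM in controls and 0.616, 0.473 and 0.383 CPM after BAL101553, a rise of 3.06 (edgeR adjusted p = 0.0293) from a level near the limit of detection. Like Ogn and Prelp, Col11a2 passed the filter on low counts only through the BAL101553 libraries, where it is high. Its p-value and its place among the 7 called are therefore a description and no support. Col11a1, whose chain joins it in type XI collagen, rose by 1.51 (edgeR adjusted p = 0.0134) from 53.0 to 103 CPM in controls to 170 to 218 CPM. Col27a1 rose by 1.13 (edgeR adjusted p = 0.0104). Leaving out 1 library kept the call in 2, 5 and 5 of 6 fits for these genes. Of the 4 others called, Col5a2 was called in 6, Col3a1 in 4, Col1a1 in 1 and Col5a1 in 0 of 6 fits, and without control replicate 3 only Col5a2 of the 7 was called.

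Of the enzymes that process and cross-link collagen, 2 of 14 tested were called, both higher, with a median of 0.07. Lox, the lysyl oxidase that starts cross-linking, had 41.0, 35.7 and 48.4 CPM in controls and 386, 142 and 215 CPM after BAL101553. Its groups did not overlap and it rose by 2.57 (edgeR adjusted p = 0.00787), a call kept in 6 of 6 fits without 1 library. Loxl2, a related enzyme, rose by 0.78 (edgeR adjusted p = 0.0363), a call kept in 1 of 6.

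Among the 10 other leucine-rich matrix genes 4 could be tested. Podn, the gene of podocan, had 1.62, 2.20 and 2.57 CPM in controls and 8.48, 7.02 and 7.86 CPM after BAL101553, rising by 1.87 (edgeR adjusted p = 0.00728), called in 6 of 6 fits without 1 library. Podnl1, its closest relative, rose by 1.13 (edgeR adjusted p = 0.0313, 2 of 6 fits). Tsku, the gene of tsukushi, fell by 0.46 on the log2 scale (edgeR adjusted p = 0.0480, 1 of 6 fits). Optc, the opticin gene beside Prelp, did not pass, at 1.21 ± 0.364 CPM in controls and 0.657 ± 0.260 CPM after BAL101553 (SD, n = 3).

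Enzymes that build the sugar chains of these proteins were called in both directions. All 6 enzymes of the linker that joins the chains to the core protein were tested and edgeR called 0, as did DESeq2 and the exact test, with 3 at an unadjusted p under 0.05 and a median of -0.25. Of 15 chondroitin and dermatan sulfate enzymes tested, 2 were called higher and 5 lower, with a median of -0.12. Csgalnact1, which starts chondroitin chains, fell by 1.39 on the log2 scale (edgeR adjusted p = 0.0158), Chst11, a sulfotransferase, fell by 0.98 (edgeR adjusted p = 0.0251) and Chsy1, a chain-lengthening synthase, fell by 0.67 (edgeR adjusted p = 0.0205). The sulfotransferases Chst3 and Chst12 rose by 1.51 (edgeR adjusted p = 0.0252) and 0.60 (edgeR adjusted p = 0.0241). These calls were kept in 5, 3, 4, 1 and 3 of 6 fits without 1 library, in the order named. Keratan sulfate enzymes had 1 of 5 called, Chst2, which fell by 0.48 (edgeR adjusted p = 0.0198, 3 of 6 fits), with a median of -0.10. Of 7 receptors known to bind members of the family, 1 was called, Egfr, which binds decorin and fell by 0.97 (edgeR adjusted p = 0.0246, 3 of 6 fits), with a median of 0.22. In astrocyte-labelled against BAL101553 libraries, fibrillar collagens had 2 of 11 called higher and 9 lower, with a median of -5.15, and collagen-processing genes 3 of 16 higher and 12 lower, with a median of -2.61, where 46.3% of all genes tested were called higher and 38.9% lower.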

How the data were processed

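RNA of sorted SB28 cells and of astrocyte-labelled samples was sequenced in 9 libraries. Stranded libraries with 50 bp reads were mapped with TopHat, and the labels name HTSeq 0.6.1 and the mm10 build, while the methods name HTSeq and featureCounts. What the authors deposited is a table of raw counts, whole numbers with no scaling. The annotation and the strand setting are not given in the sources used here. Methods state 2 ex vivo samples per group, and 3 were deposited. The published account, from which sort, age and days of harvest were taken, also names a different deposit for its sequence data. Dates stand in place of 27 gene symbols.

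The members and lists were chosen with earlier results of these data known. All 9 members are named, and from each list at most the 3 largest called changes in each direction without overlap, the 5 genes most like Aspn, and chromosome neighbours; Col1a1, Col3a1, Col5a1, Col5a2, Optc and the marker genes named alone were picked after their values were seen. Tests were run with edgeR 4.0.16 under R 4.3.3. Genes passing filterByExpr were compared with the quasi-likelihood test after TMM scaling, with Benjamini-Hochberg adjustment over all genes and a threshold of 0.05, two-sided, and only the 2 groups compared in each fit. Replicates differed beyond sampling noise (chi-square of 14.3 to 64.9 per degree of freedom). Lengths and positions came from GENCODE vM21 (23309 symbols matched). Levels are CPM, and CPM per kb used the union of exons. Alternatives were DESeq2 1.42.0, the exact test, other scalings and filters, all 9 libraries in 1 model, a replicate block and libraries left out. The tests were tested on simulated data.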

Additional observations from a re-analysis of the deposited data

How the results depend on the processing

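In BAL101553 against control, 4 members were called, and DESeq2, the exact test, other scalings, all 9 libraries in 1 model and 1 count as the filter also gave 4; at least 10 counts in every library left 2 of the 8 members other than Aspn to test and 1 called, and 2 called in astrocyte-labelled against control. Leaving out 1 library gave 1 to 4 members (2 without control 1, 1 without control 3), and 2 libraries per group gave 0 to 4; where edgeR called 0, 4 members had an unadjusted p under 0.05. Astrocyte-labelled against BAL101553 gave 4 to 6 without 1 library, and against control 7 of 7. All genes called numbered 1860, 2832 with DESeq2 and 3022 with all 9 libraries. They numbered 193 to 1712 without 1 library (193 without control 3, 458 without control 1, 668 without BAL101553 3, 1133 without BAL101553 1) and 1 to 1757 with 2 per group. Listed genes called numbered 21, and 4 to 19, not all of them among the 21, without 1 library (4 without control 3, 8 without control 1, 7 without BAL101553 3) and 0 to 18 with 2 per group (where edgeR called 0, an unadjusted p was under 0.05 for 25 to 28). Bgn turned to -0.41 without BAL101553 2, and to -0.40, -0.29 and -0.53 where a control was left out too, in a range of -0.53 to 0.92 with 2 libraries per group; no other member tested changed sign in any comparison, and no list median did under other scalings. Same-numbered control and BAL101553 libraries correlated at 0.145, -0.0071 and 0.146, so the numbers were not taken as pairs; the replicate block gave 4 members, 1371 genes and 4 instead of 7 fibrillar collagens. With the longest transcript as length, Bgn had 446, 602 and 47.6 CPM per kb in control, BAL101553 and astrocyte-labelled libraries, and Dcn 1.06 and 6.52 in the first and last. The causes were not tested. Depth limits Aspn, Omd, Fmod, Lum and Prelp in controls, where no library had more than 29 counts of any of them, and Ogn, with 6 to 36.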

Other observations

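BAL101553 replicate 2 stood above both other treated libraries for some matrix genes, chosen here after their values were seen. It had 4.46 CPM of Lum (21.7-fold over the higher of the others), 27.9 CPM of Mfap4 (10.5-fold), 212 CPM of Eln (6.41-fold), 3021 CPM of Bgn (2.81-fold) and 5.25 CPM of Adam33 (2.74-fold). For Aspn the ratio was 1.61 and for Ogn 1.503, while Omd (0.814), Prelp (0.509) and Dcn (0.386) were lower there than in the higher of the other libraries. Of 12633 genes, 1.78% were over 2-fold above both others in replicate 2, 0.649% in replicate 1 and 0.744% in replicate 3. In the astrocyte-labelled libraries Ecm2 had 32.3 ± 2.94 CPM (SD, n = 3) where Aspn, the next gene on the same strand, had 8.41 ± 1.43 CPM.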
